A study of Homo sapiens and Mus musculus with 28 samples.

Results

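The guanylate-binding proteins (GBPs) and the immunity-related GTPases (IRGs) are interferon-inducible GTPases of mouse cells. Here 10 of their genes were followed in 4 mouse head and neck squamous cell carcinomas (HNSCC): Gbp2, Gbp3, Gbp5, Gbp6, Gbp7, Gbp8, Gbp9, Irgm1, Irgm2 and Igtp. They were taken by symbol from a table of 32138 gene IDs, each symbol matched 1 ID, and all 10 were among the 14523 genes with counts enough to be fitted. The genes were chosen by their own R4KO against Wt values in these 4 tumors, so the tumor values below are a description, with no test of these genes.

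By the labels' protocol polyadenylated RNA was sequenced, although the same labels enter the molecule as genomic DNA. The samples were autochthonous tumors, 2 labelled R4KO (Rexo4 knockout) and 2 labelled Wt (wild type). Rexo4 encodes an RNA exonuclease, and the study asked what its loss does in HNSCC. The labels give no strain, age, Cre driver or way of inducing the tumors, and do not say whether the replicates of a group came from separate animals. The same study sequenced SCC1, an established human HNSCC cell line. Of its groups this account tests control cells with vehicle (Ctrl Vehicle), the REXO4 knockouts R4KO_1 and R4KO_2 with vehicle, and Vehicle and iR4 cells of a second experiment, each with 3 libraries. Values without a test are given for cells labelled KO_2 with the STING inhibitor H-151 or the TBK1 inhibitor BX-795. Cells labelled H151_iR4, also of the second experiment, entered its fit, but no gene values are given for them. What iR4 stands for is not explained in the labels.

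GBPs and IRGs are part of cell-autonomous immunity. Interferon-gamma, acting through its receptor and JAK kinases, is their strongest known inducer, and IRF1 and type I interferon also act on their promoters. GBPs gather on the membranes of vacuoles that hold pathogens and on bacteria set free in the cytosol, which helps to break those membranes open and to start inflammasome signalling. Effector IRGs coat the same vacuoles, while the regulatory IRGs Irgm1, Irgm2 and Igtp (also called Irgm3) sit on the cell's own membranes and keep the effectors inactive there.

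Total counts ran from 16.73 to 18.19 M per tumor library. Rexo4 stood at 17.4 and 14.9 CPM in the R4KO tumors and at 31.1 and 30.3 CPM in the Wt tumors; CPM is a count scaled to a common library size after TMM, a correction for library composition. Squamous epithelial markers, among them Krt5, Krt14 and Trp63, summed to 22249 and 36108 CPM in R4KO and 44283 and 54792 CPM in Wt. Of the 8, 4 were lower in both R4KO tumors (14.2% of all genes) and 1 was higher (16.4% of all genes). The higher marker was Cdh1, named for its value, at 558 and 533 CPM in R4KO and 309 and 439 CPM in Wt. Trp63 overlapped, at 543 and 394 CPM in R4KO and 1130 and 539 CPM in Wt. R4KO replicate 1 held the most skeletal muscle transcripts, with 2342 CPM over 6 markers against 7.497 to 275.3 CPM in the other tumors. Values are of whole tumors, in which more cells of a type and more RNA per cell cannot be told apart.

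All 10 GTPase genes were higher in both R4KO tumors than in both Wt tumors, with log2 fold changes from 1.78 (Gbp9) to 5.98 (Gbp6). Such separation was seen in this direction in 16.4% of all genes fitted. The median log2 fold change of the 10 was 3.09, against 0.01 over all genes. Centred on each gene's mean over the tumors, the median gene of the list stood at 1.46 log2 units in each R4KO tumor and at -1.60 and -1.40 in Wt replicates 1 and 2. Gbp6 and Gbp8 entered the fit through their R4KO counts alone; the other 8 had counts enough in the Wt tumors as well. With 2 tumors a group, edgeR's quasi-likelihood test called 0 of 14523 genes at an adjusted p under 0.05 (percent called 0), so none of the 10. At an unadjusted p under 0.05 the table held 655 genes (4.51%), 9 of the 10 among them. These p-values are no test of the 10, which were chosen by this same contrast, and the count is no support.

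**Figure D1:**
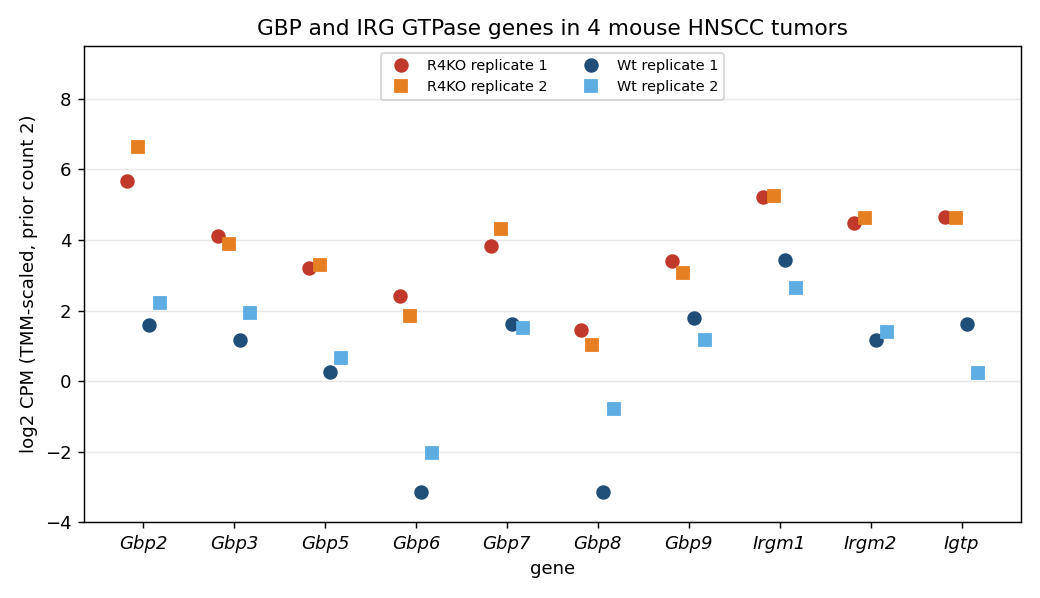
Log2 CPM (TMM-scaled, prior count of 2, vertical axis) of the 10 GBP and IRG genes in each of the 4 tumors; each point is 1 library. For every gene both R4KO points lie above both Wt points, most narrowly for Gbp9, and the lowest Wt points of Gbp6 and Gbp8 are libraries with 0 counts.

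Gbp2 (ENSMUSG00000028270), a prenylated GBP that is targeted to pathogen vacuoles, was at 50.7 and 99.3 CPM in R4KO replicates 1 and 2 and at 2.87 and 4.50 CPM in Wt replicates 1 and 2. Even the lower R4KO tumor lay 11.3-fold above the higher Wt tumor, and the R4KO tumors differed from each other too. Its log2 fold change was 4.35 ± 0.53 (SE, n = 2 per group). Gbp5 (ENSMUSG00000105504), which promotes assembly of the NLRP3 inflammasome, was at 9.07 and 9.59 CPM in R4KO and 1.07 and 1.46 CPM in Wt. The tumors of each group lay close together for this gene, and its log2 fold change was 2.88 ± 0.56.

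Gbp3 (ENSMUSG00000028268) was at 17.1 and 14.7 CPM in R4KO and 2.14 and 3.70 CPM in Wt, a log2 fold change of 2.44 ± 0.52. Gbp7 (ENSMUSG00000040253), which helps the phagocyte oxidase to assemble on phagosomes, was at 14.2 and 19.7 CPM in R4KO and 2.99 and 2.71 CPM in Wt (log2 fold change 2.57 ± 0.47). For both genes the groups stood apart by several-fold, while replicate 1 was the higher R4KO tumor for Gbp3 and the lower one for Gbp7.

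Gbp6 (ENSMUSG00000104713) and Gbp9 (ENSMUSG00000029298) are GBPs that also gather at parasite vacuoles. Gbp6 had 102 and 64 counts in R4KO replicates 1 and 2, and 0 and 2 counts in Wt replicates 1 and 2. It was nearly undetected in Wt tumors at this depth, and over the pooled counts the ratio of R4KO to Wt was 72.5 with a 95% counting interval from 19.7 to 603. Gbp9 was at 10.5 and 8.28 CPM in R4KO and 3.33 and 2.12 CPM in Wt, so its lower R4KO tumor lay 2.49-fold above its higher Wt tumor, the narrowest gap among the 10. Gbp8 (ENSMUSG00000034438) had 51 and 35 counts in R4KO and 0 and 7 in Wt. All its counts in Wt came from replicate 2, and the pooled ratio was 10.7 (interval 4.99 to 27.5). Without Wt replicate 2 the fitted log2 fold change of Gbp8 rose from 3.30 to 8.39, and that of Gbp6 from 5.98 to 9.34, since the remaining Wt library is then at 0 counts and the fitted value has no firm size. Counting intervals cover counting error only.

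The regulatory IRGs differed between the groups as well. Irgm1 (ENSMUSG00000046879), needed for autophagy and mitochondrial upkeep in macrophages as well as for control of the effector IRGs, was at 37.2 and 37.7 CPM in R4KO and 10.6 and 6.15 CPM in Wt (log2 fold change 2.16 ± 0.42). Irgm2 (ENSMUSG00000069874) was at 22.2 and 24.5 CPM in R4KO and 2.14 and 2.51 CPM in Wt (3.32 ± 0.43). Igtp (ENSMUSG00000078853) was at 24.8 and 24.5 CPM in R4KO and 2.99 and 1.06 CPM in Wt (3.60 ± 0.64). For all 3 genes the R4KO tumors nearly coincided. The Wt tumors lay close together for Irgm2 and apart for Irgm1 and Igtp, with Wt replicate 1 the higher.

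Within the R4KO group the genes did not move in step. Gbp2 was lower in replicate 1 than in replicate 2, with a ratio of 0.511 and a 95% counting interval from 0.472 to 0.552, and so was Gbp7 (0.720, 0.613 to 0.845). Gbp6 was higher in replicate 1 (1.498, 1.09 to 2.08), as was Gbp9 (1.26, 1.02 to 1.57). The intervals of the other 6 held a ratio of 1. Between the Wt tumors, 3 genes were higher in replicate 1 (Gbp9, Irgm1 and Igtp, the last by a ratio of 2.82), 3 were lower (Gbp2, Gbp3 and Gbp8) and 4 had intervals that held 1. These intervals compare single libraries, not conditions.

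Family genes outside the 10 were looked at by the same measure. Of 16 found in the table, 11 could be fitted, and 10 of these were higher in both R4KO tumors (16.4% of all genes). Since 8 of the 10 were fitted through their R4KO counts alone, they could hardly have come out otherwise, and the count is no support; Ifi47 and 9930111J21Rik2 had counts enough in the Wt tumors. Iigp1, an effector IRG that coats parasite vacuoles, was at 39.4 and 57.3 CPM in R4KO and 0.564 and 2.65 CPM in Wt. The effector IRGs Tgtp1 (3.97 and 9.92 against 0.338 and 0.331 CPM), Tgtp2 (4.38 and 7.02 against 0.451 and 0.265 CPM) and Ifi47 (9.69 and 16.7 against 0.958 and 2.65 CPM) were higher in R4KO in the same way. Gbp4 was at 21.4 and 11.3 CPM in R4KO and 0.113 and 1.32 CPM in Wt, and 9930111J21Rik2 at 2.63 and 3.89 against 1.47 and 1.92 CPM. Irgq, an IRG-related quasi-GTPase, was the exception: it was at 41.3 and 78.6 CPM in R4KO and 70.1 and 81.4 CPM in Wt, so that the groups overlapped.

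The R4KO tumors differed from each other by over 3-fold, with replicate 1 the higher, in 4 family genes given here because of their values. Gm12185 was 7.52-fold higher in R4KO replicate 1 than in replicate 2 (95% counting interval 4.005 to 15.6), Gm4841 7.19-fold (5.02 to 10.6), Gbp10 6.80-fold (3.79 to 13.2) and F830016B08Rik 3.18-fold (2.15 to 4.81). In the other direction Tgtp1 (0.400, 0.302 to 0.525) and 9930111J21Rik1 (0.179, 0.0447 to 0.531) were lower in replicate 1. Both R4KO tumors still lay above both Wt tumors for each of the 4 genes higher in replicate 1, with at most 3 Wt counts in all per gene. Among the 5 genes too low to fit, Gbp2b had 10 counts in R4KO and 0 in Wt, and Gbp11 had 13 and 0. With the Wt group put at 3 counts in all, they were 2.91-fold and 3.78-fold higher. From the counts themselves, the lower 95% counting limits of the ratios were 1.96 and 2.66. Gm5431 had 17 and 1 counts, 9930111J21Rik1 had 25 and 12, and Irgc1 had 2 and 2. Gbp6 and Gbp10, and Tgtp1 and Tgtp2, are close copies of each other, and no source used here gives how reads that fit several genes were counted, so the split between such pairs is uncertain.

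**Figure D2:**
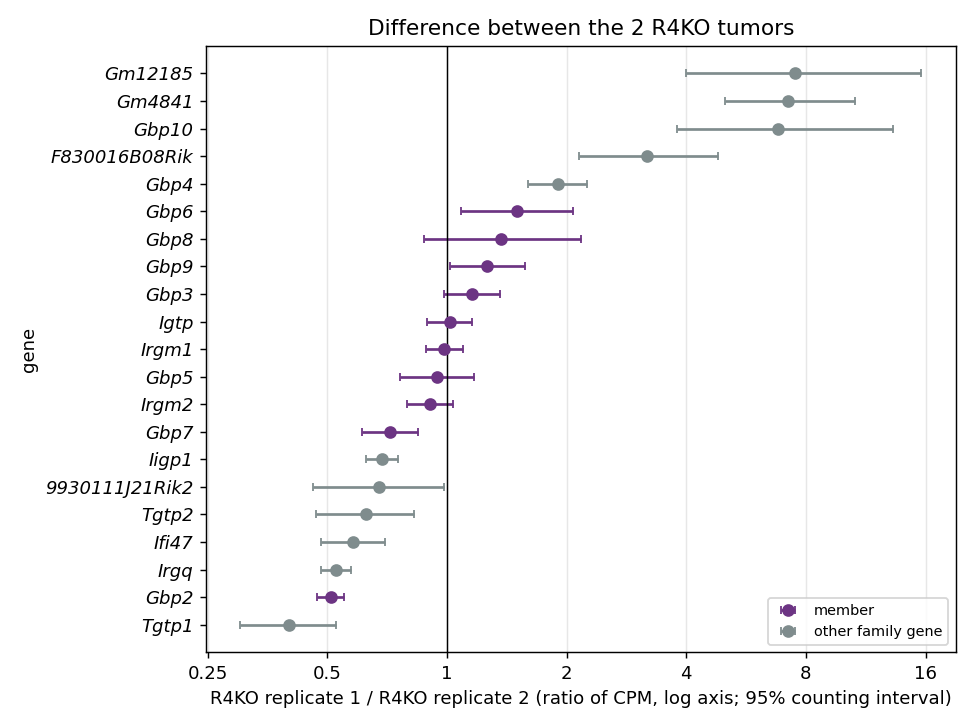
CPM in R4KO replicate 1 divided by CPM in R4KO replicate 2 (horizontal log axis) for GBP and IRG genes with at least 60 R4KO counts; bars are 95% counting intervals, purple points are the 10 genes of the list and grey points other family genes. The 10 lie between 0.511 (Gbp2) and 1.498 (Gbp6), inside a span from 0.400 (Tgtp1) to 7.52 (Gm12185).

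The signalling genes upstream of the GTPases showed smaller differences, and edgeR called 0 in each of the following lists. Ifng itself had 4 and 11 counts in R4KO replicates 1 and 2 and 0 in both Wt tumors. With the Wt group put at 3 counts in all, Ifng was 4.36-fold higher in R4KO. From the counts themselves, the lower counting limit of its ratio was 3.13 (confidence level 0.95). Ifnb1 was at 0 in all 4 tumors. Irf1, a transcription factor that binds GBP promoters, was at 32.9 and 39.4 CPM in R4KO and 9.70 and 8.60 CPM in Wt. The kinases Jak1 (log2 fold change -0.15) and Jak2 (0.15) overlapped between the groups. Of 10 fitted genes in the interferon-gamma signalling list, 5 were higher in both R4KO tumors and 0 lower, against 16.4% and 14.2% of all genes. Irf1 was among them, as were Ifngr1, Irf8 and Ptpn2, which are named because of their values. The list's median log2 fold change was 0.28. In the type I interferon list 5 of 8 were higher in both R4KO tumors (16.4% of all genes), with a median of 0.73. Its most abundant genes had small log2 fold changes, -0.08 for Irf3 and 0.11 for Ifnar1, the latter just separating the groups. Stat2 (1.92), Usp18 (1.82), Irf7 (1.76) and Irf9 (1.35), named for their values, differed more.

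Other targets of interferon-gamma stood nearer to the GTPases. Of 9 fitted, 8 were higher in both R4KO tumors (16.4% of all genes), 1 of them, Cxcl9, fitted through its R4KO counts alone, with a median log2 fold change of 3.12. Nlrc5, the activator of MHC class I genes, was at 61.3 and 65.2 CPM in R4KO and 4.17 and 9.19 CPM in Wt, and the peptide transporter gene Tap1 at 66.1 and 61.6 against 16.1 and 12.4 CPM. By contrast, the autophagy conjugation genes whose products direct GBPs and IRGs to vacuoles had a median of -0.13 over 10 genes. Gabarap (-0.39) and Map1lc3b (-0.16) overlapped between the groups; only Gabarapl1 was higher and only Atg12 lower in both R4KO tumors, 2 genes named for their values (16.4% and 14.2% of all genes). Of 8 inflammasome genes, 3 were higher in both R4KO tumors (Casp4, Gsdmd and Aim2) and 1 lower (Il18), again named for their values, with a median of 0.75; Aim2 was fitted through its R4KO counts alone, and the shares of all genes were 16.4% and 14.2%. Casp1 (-0.00) and Pycard (0.21) overlapped.

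Among 11228 other genes with a mean of at least 2 log2 CPM, the nearest patterns to the list's median over the 4 tumors were those of Psmb9, Gypc, Steap4, Nlrc5 and Arg2. Likeness was the distance between centred log2 CPM values over 4 tumors, and theirs ran from 0.585 (Psmb9) to 0.768 (Arg2). Distances of the 10 genes to their own median ran from 0.235 (Gbp5) to 1.92 (Gbp6), so these outside genes lay nearer to it than 6 of the 10. Psmb9, an immunoproteasome subunit gene, was at 14.1 and 21.1 CPM in R4KO and 1.47 and 2.58 CPM in Wt. Gypc, which encodes a membrane glycoprotein best known from red blood cells, was at 32.0 and 32.7 against 2.48 and 2.58 CPM.

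Leukocyte transcripts were higher in R4KO as well, but with another pattern over the 4 tumors than the GTPases. Centred in the same way, the median of 4 leukocyte genes stood at 0.47 and 1.41 log2 units in R4KO replicates 1 and 2. In Wt replicates 1 and 2 it stood at -1.78 and -0.04. Ptprc, Cd53, Coro1a and Laptm5 summed to 66.5 and 118.6 CPM in R4KO replicates 1 and 2 and to 17.9 and 47.3 CPM in Wt replicates 1 and 2, all 4 being higher in both R4KO tumors. Over all genes fitted this held for 16.4%, the share to set beside each count of higher markers in this paragraph. T cell markers summed to 8.86 and 11.95 CPM in R4KO and 1.07 and 2.25 CPM in Wt, with Cd8a and Cd8b1 at 0 in both Wt tumors; all 6 fitted markers were higher, but all 6 were fitted through their R4KO counts alone. Natural killer and cytotoxic markers summed to 4.79 and 5.81 against 0.225 and 0.463 CPM (2 markers fitted, both through R4KO alone, Ncr1 at 0 throughout), and dendritic cell markers to 22.4 and 25.9 against 7.10 and 7.01 CPM (3 of 5 higher, 2 of the 3 fitted through R4KO alone). Macrophage markers overlapped, at 160.1 and 364.4 CPM in R4KO and 80.9 and 195.4 CPM in Wt, with 3 of 10 higher in both R4KO tumors. Neutrophil markers overlapped too (9.28 and 30.7 against 3.50 and 19.4 CPM; 1 of 4), and B cell markers stayed at or under 0.397 CPM, with Ms4a1 at 0. Endothelial markers were lower, at 171.8 and 197.9 CPM in R4KO and 274.4 and 212.0 CPM in Wt (4 of 6 lower in both R4KO tumors, 14.2% of all genes). The squamous sum above was lower too, with Cdh1 going the other way. The part of these cells in the GTPase values was not tested.

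Set against the summed CPM of the 4 leukocyte genes in the same tumor, the GTPases split. For 7 of the 10 both R4KO tumors stayed above both Wt tumors (1.59% of all genes): Gbp2, Gbp3, Gbp5, Gbp6, Gbp8, Irgm2 and Igtp. The leukocyte sum was itself higher in both R4KO tumors, so dividing by it leaves fewer genes above and makes this share low. The 10 were chosen by their R4KO against Wt values, and Gbp6 and Gbp8 were fitted through R4KO alone. The count is therefore a description and no test. Gbp2 was at 0.763 and 0.838 of the leukocyte sum in R4KO against 0.161 and 0.0951 in Wt, and its groups stood well apart. Irgm2 was at 0.334 and 0.207 in R4KO and 0.120 and 0.0531 in Wt. Gbp3 hardly separated, with R4KO replicate 2 at 0.124 and Wt replicate 1 at 0.120. Irgm1 overlapped, at 0.559 and 0.318 in R4KO and 0.593 and 0.130 in Wt, and Gbp7 and Gbp9 overlapped as well. In each of these 3 genes it was Wt replicate 1, the tumor with the lowest leukocyte sum, that reached above an R4KO tumor.

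**Figure D3:**
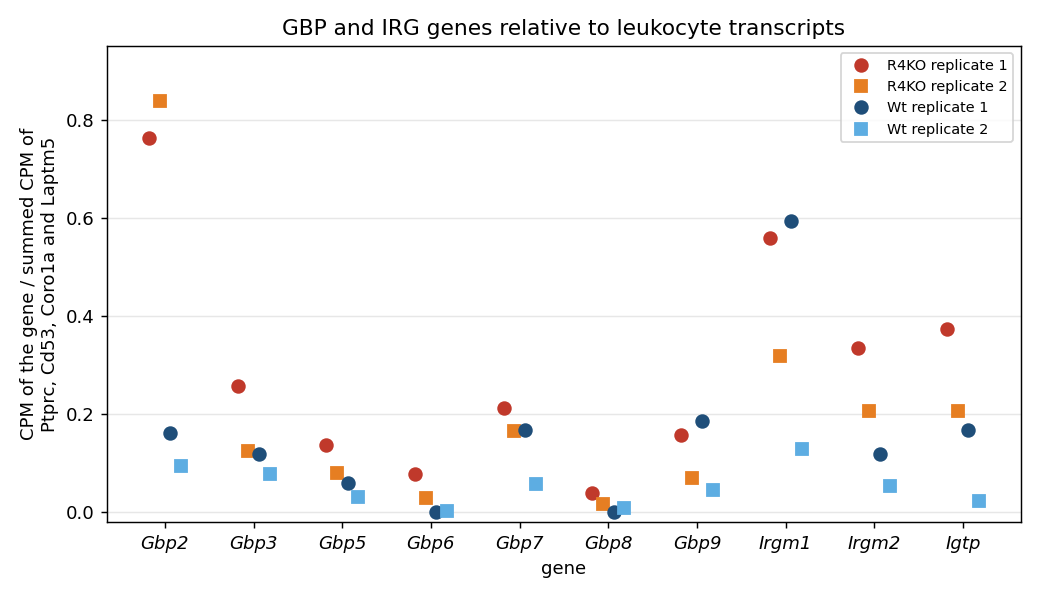
CPM of each of the 10 genes divided by the summed CPM of Ptprc, Cd53, Coro1a and Laptm5 in the same tumor (vertical axis, a ratio); each point is 1 library. Gbp2 has the largest difference in the ratio itself, at 0.763 and 0.838 in R4KO against 0.161 and 0.0951 in Wt, while Irgm1, Gbp7 and Gbp9 overlap.

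SCC1 cultures hold no immune or stromal cells and were not used to choose the mouse genes, so the human GBP genes could be tested there. They are relatives of the mouse genes rather than matched counterparts, and human cells keep few IRG genes. In R4KO_1, 5 of the 6 GBP genes with counts enough to be tested rose and 0 fell, against 33.0% and 31.4% of all genes called higher and lower. In R4KO_2, compared with the same control libraries, 5 rose and 1 fell (34.0% and 32.2% of all genes). In iR4 cells against their own Vehicle, 4 of 5 rose and 1 fell (37.1% and 34.8%). The labels do not say what an SCC1 replicate is, and p-values may measure technical spread only.

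GBP2 showed the widest change of the well-expressed members. It went from 10.1, 7.38 and 10.1 CPM in Ctrl Vehicle to 35.5, 32.2 and 26.9 CPM in R4KO_1 and 30.6, 27.6 and 29.3 CPM in R4KO_2, with no overlap. Its log2 fold changes were 1.78 ± 0.10 (SE, n = 3; edgeR adjusted p = 2.85e-12) and 1.67 ± 0.11 (edgeR adjusted p = 7.28e-12). In iR4 cells it rose from 5.91 ± 0.560 to 11.99 ± 0.483 CPM (mean ± SD, n = 3; edgeR adjusted p = 3.33e-09). In KO_2 cells with H-151 it was at 8.12 ± 0.382 CPM and with BX-795 at 7.23 ± 0.327 CPM. Other GBP genes stood differently to Ctrl Vehicle. Mean GBP1 was at 3.50 CPM with H-151 and 6.76 with BX-795, below 11.5 CPM in Ctrl Vehicle. GBP3 was at 18.5 and 27.2 CPM, below 36.8 CPM. GBP5 was at 0.381 and 0.682 CPM, above 0.138 CPM. These differences were not tested.

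GBP3 was the member with the highest level per exon length in Ctrl Vehicle, at 8.56 ± 0.426 CPM per kb against 2.30 ± 0.234 for GBP1 and 1.46 ± 0.249 for GBP2 (exons joined over GENCODE v29 transcripts). It rose from 36.8 ± 1.83 CPM to 57.0 ± 8.28 in R4KO_1 (edgeR adjusted p = 1.65e-07) and 75.9 ± 2.75 in R4KO_2 (edgeR adjusted p = 3.63e-11), and from 19.98 ± 0.0847 to 36.5 ± 1.24 CPM in iR4 cells (edgeR adjusted p = 4.83e-13). GBP1 rose from 11.5 ± 1.17 CPM to 19.0 ± 0.801 and 20.3 ± 0.808 CPM in the knockouts (edgeR adjusted p = 2.37e-07 and 2.94e-08), and by less in iR4 cells (log2 fold change 0.48, edgeR adjusted p = 0.00167).

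GBP5 and GBP4 rose from near absence. Over 3 libraries GBP5 had 7 counts in Ctrl Vehicle against 63 in R4KO_1 and 92 in R4KO_2, with log2 fold changes of 2.99 ± 0.47 and 3.51 ± 0.43 (edgeR adjusted p = 8.07e-06 and 2.65e-07), and rose in iR4 cells by 1.44 ± 0.37 (edgeR adjusted p = 0.00140). GBP4 had 4 counts in Ctrl Vehicle against 37 in R4KO_1 and 22 in R4KO_2 (edgeR adjusted p = 1.27e-04 and 0.00542), and was too low to test in iR4 cells. GBP6 went the other way in part: it fell in R4KO_2 from 3.42 ± 0.615 to 1.74 ± 0.305 CPM (edgeR adjusted p = 4.33e-04), while in R4KO_1 it was at 3.99 ± 1.03 CPM (edgeR adjusted p = 0.287). In iR4 cells GBP6 had a log2 fold change of -0.68 with overlapping libraries (edgeR adjusted p = 0.0435), a call lost in 8 of 11 alternatives, among them those without iR4 replicate 2 or 3 or Vehicle replicate 2 or 3. GBP7 was at 0 counts in Ctrl Vehicle and both knockouts. Of the IRG genes, IRGM and IRGC were too low to test, and IRGQ rose by 0.29, 0.32 and 0.53 log2 units in R4KO_1, R4KO_2 and iR4 (edgeR adjusted p = 0.00363, 0.00133 and 4.60e-07).

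**Figure D4:**
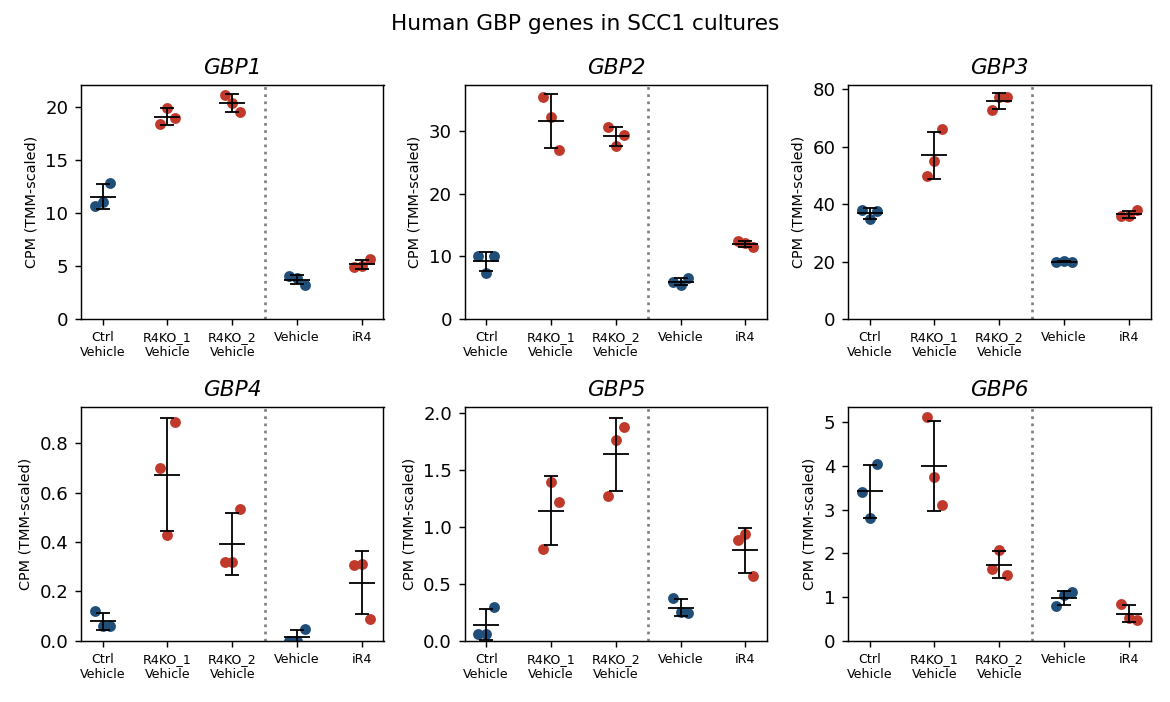
CPM (TMM-scaled, vertical axes from 0) of 6 human GBP genes in SCC1; points are libraries, bars the mean ± SD of 3, blue for controls and red for knockout or iR4 cells, with a dotted line between the experiments. GBP1, GBP2 and GBP3 of both knockouts lie wholly above Ctrl Vehicle, and GBP6 of R4KO_2 lies below it.

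The human GBP genes stand side by side on chromosome 1. In GRCh38 (GENCODE v29), GBP3 spans 89006666 to 89022894, GBP1 spans 89052319 to 89065360 and GBP2 spans 89106132 to 89150456, all on the minus strand. The following 2 short stretches near the starts of genes that rose in both knockouts are shown because they hold motifs bound by interferon-activated factors. The search covered the 250 bases before the RefSeq start (GRCh38.p14), on both strands, for the core of the interferon-stimulated response element (GAAA, any 2 bases, GAAA) and the gamma-activated site (TTCNNNGAA), whose matches shared no bases here. Each line gives 30 bases on the gene's strand, minus in both cases, with the match in capitals.
GBP1, chr1:89065316-89065345: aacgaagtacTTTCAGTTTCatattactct
GBP3, chr1:89022867-89022896: tggttactgagtcacTTCCTTGAAagaagt
The GBP1 match to the response element core, on the opposite strand, begins 127 bases before the start, and the GBP3 match to the gamma-activated site 15 bases before it. Both matches lie before the RefSeq start but inside the wider GENCODE spans given above. The core occurs in 3.02% and the site in 6.57% of 35116 such windows. Of the 10 human family genes searched for, 7 had a window, and each motif was found in 1 of them. GBP2, GBP5 and IRGM had no window, so their starts were not searched. GBP4, which rose in both knockouts, had a window with neither motif. A match is a run of letters, not a measured binding site. GBP1 shares 9.62% of its 50-base words with transcripts of other genes (most with GBP1P1), GBP2 10.2% (GBP7) and GBP3 4.76% (GBP1). A part of their reads may thus be left uncounted or counted elsewhere. For GBP2 this was not at GBP7, which had 0 counts in Ctrl Vehicle and both knockouts.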

How the data were processed

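Each deposited file is 1 library's raw counts, with Ensembl IDs as rows; an ID listed under several symbols repeats its line and was used once. The submitters' processing notes name HISAT2 2.2.1, featureCounts 2.0.1, Trim Galore 0.6.4, FastQC 0.11.9, DESeq2 1.42.0 and the builds mm10 and hg38. Annotation, strand setting and the treatment of reads that fit several genes are not stated there. Symbols are the files' own.

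Counts were fitted with edgeR 4.0.16 in R 4.3.3. Library sizes were scaled by TMM, low genes were removed by filterByExpr (minimum count 10), and quasi-likelihood p-values were adjusted by Benjamini-Hochberg over all genes tested (threshold 0.05). Separate models were used for the 4 tumors, for 15 SCC1 libraries and for 9. The 15 were Ctrl Vehicle, R4KO_1 and R4KO_2 with vehicle, and KO_2 with H-151 or BX-795. The 9 were Vehicle, iR4 and the cells labelled H151_iR4. SEs are the log2 fold change divided by the root of F. SCC1 totals ran from 16.04 to 27.94 M counts. Intervals are exact binomial (confidence level 0.95), and a group at 0 was put at 3 counts.

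The 10 genes and all lists were chosen with earlier results of these data known. Named genes are the 10, every measured family gene, the 2 most abundant genes of each pathway list with Ifng, Irf1 and Rexo4, and the 5 nearest patterns; others are marked in the text, and 1 further gene is not reported here. Alternatives were RLE and upper-quartile factors, no filter, a filter of 1 CPM, DESeq2, the replicate number as a block, and leaving out each replicate. The fits of the tumors and of R4KO_1 against Ctrl Vehicle were tested on simulated data, while the R4KO_2 and iR4 contrasts were not. The fits of R4KO_1 recovered most changed genes. On simulated tumors edgeR missed the changed genes, and DESeq2 found some of them and made false calls. Counts of calls in the tumors are therefore a weak guide. Mouse sequences were not analysed here.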

Additional observations from a re-analysis of the deposited data

Results flagged for a closer look

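The response of 2 human genes differed between the REXO4 knockouts of SCC1, by a test added after the values were seen, in the same edgeR fit with adjustment over all genes. Against the shared Ctrl Vehicle libraries, the log2 fold change of GBP3 was larger in R4KO_2 than in R4KO_1 by 0.41 ± 0.07 (SE, n = 3 per group; edgeR adjusted p = 8.55e-05), and all 3 R4KO_2 libraries lay above all 3 of R4KO_1. For GBP6 the difference was -1.20 ± 0.21 (edgeR adjusted p = 1.20e-04), with all 3 R4KO_2 libraries below all 3 of R4KO_1. Between the knockouts 15.1% of genes were called higher and 16.6% lower in R4KO_2. For GBP1, GBP2, GBP4 and GBP5 the difference had an edgeR adjusted p between 0.144 and 0.395.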

How the results depend on the processing

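In the tumors the 10 genes kept both R4KO libraries above both Wt libraries under the 9 alternatives in which this was computed. Their median log2 fold change was 3.09 and ran from 2.66 to 3.07 when a replicate was left out, the lowest without Wt replicate 1; under the other alternatives it ran from 3.07 to 3.12. Calls depended on the tool: edgeR called 0 genes, edgeR without a filter on low counts 6 genes with 1 of the 10 among them, and DESeq2 145 genes (1.02% of those given an adjusted p) with 8 of the 10. Calls among the 10 are no support, since these genes were chosen by this same contrast. Leaving out any replicate gave 0 calls. The cause was not tested. Replicate numbers are shared between groups, but the labels tie them to nothing; deviations of same-numbered tumors correlated at 0.136, and those of SCC1 libraries at means of -0.052 to 0.001. With the replicate block edgeR called 0 tumor genes, and the median of the 10 was 3.11; in SCC1 the block moved the genes called higher in R4KO_1 from 4742 to 4728, in R4KO_2 from 4872 to 4848 and in iR4 from 5197 to 5196. In SCC1, GBP1, GBP2, GBP3 and GBP5 kept direction and call in all 143 fits of an alternative, while GBP6 in iR4 cells had an edgeR or DESeq2 adjusted p between 0.0150 and 0.167.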
